A study of Mus musculus with 6 samples.

Results

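The genes described here are the 4 genes of the ID (inhibitor of DNA binding) protein family, Id1, Id2, Id3 and Id4, together with Bmp1, Bmp4, Bmpr1a, Bmpr2, Smad1 and Smad6 of the bone morphogenetic protein (BMP) signalling route. They are 10 of the 54532 rows of the deposited gene table, taken by gene name. They were chosen from the measured knockout against wild-type differences of these same libraries, so their differences, and how they came out in the fit over all genes, are a description and no independent test, and nothing about the pathway is supported with them. The cells came from MC38, a mouse colon cancer line, grown under the skin of C57BL/6 hosts that were themselves wild type, and CD45 microbeads were used to obtain the CD45- fraction, CD45 being the surface protein that leukocytes share. The 3 wild-type libraries come from tumours of unedited MC38 cells as far as the labels say, and the 3 knockout libraries from tumours labelled deficient for Npm1, which encodes nucleophosmin, a nucleolar chaperone. The labels give no other treatment, no guide, clone or age of the mice, and leave it unsaid whether a replicate is its own animal, so a p-value here reflects no more than how these samples differed among themselves, and that scatter may be technical.

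BMPs are secreted ligands that bring together type I and type II receptor kinases, which phosphorylate the receptor SMADs, SMAD1, SMAD5 and SMAD9. These join SMAD4, enter the nucleus and switch on targets, of which the Id genes are the best known direct ones, while SMAD6 and SMAD7 are inhibitory SMADs that feed back on the receptors. ID proteins have a helix-loop-helix region but no basic DNA-binding region: they pair with E proteins (Tcf3, Tcf4, Tcf12) and keep them and their tissue-specific partners off DNA.

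Each library held 16917778 to 18662688 fragments. Npm1 measured 234, 169 and 195 FPKM (fragment numbers scaled by gene length and by library size) in wild type and 191, 159 and 128 FPKM in the libraries labelled knockout, a log2 difference of -0.33 (SE 0.197), and an exact two-sided permutation test gave p = 0.2, where 3 against 3 allows no p below 0.1. Once the trend with transcript length and GC content described below was removed, Npm1 stood at -0.76 (SE 0.138, limma adjusted p = 0.0434), lower in the knockout and past the threshold. Over the fits with that trend removed, its limma adjusted p ran from 0.0203 to 0.144, and with the trend in place it reached 0.508. The deposited Npm1 values of the groups overlapped, so on their own they do not check the labels. Markers of colon epithelium were near 0 in these cells labelled colon cancer: the 8 markers summed to 0.877 to 1.17 FPKM in wild type and 0.584 to 1.26 FPKM in the knockout, with Epcam at 0 fragments in 5 libraries and at 1 in the other, and with at most 8 fragments of Krt8 and 7 of Krt18. Cdh1 made up most of the wild-type sum, with 37 to 65 fragments there and 19 to 31 in the knockout, and Krt19 had at most 16. Leukocyte markers were low as well, 8 of them summing to 1.73 to 6.11 FPKM in wild type and 2.28 to 4.03 FPKM in the knockout and only Lyz2 averaging 1 FPKM or more, with 0 to 4 fragments of Ptprc, the gene of CD45, and 0 fragments of Cd3e in every library. In such bulk samples, fewer cells of a type and less RNA per cell cannot be told apart.

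The start regions of 3 of the genes are shown because Id2 and Id3 had the clearest higher values in the knockout and Smad6 is itself a known BMP target with lower ones. Each runs from 250 bases before to 50 after the annotated start (RefSeq, GRCm38.p6), 5′ to 3′ on the gene's strand, with Id3 at chr4:136143572-136143871 on the plus strand, Id2 at chr12:25096043-25096342 on the minus strand and Smad6 at chr9:64022010-64022309 on the minus strand. Capitals mark matches, on either strand, to GGCGCC (a GC-rich SMAD element), CANNTG (an E-box, the kind of site E proteins bind), GGGCGG (a GC box) and TATAA.
Id3: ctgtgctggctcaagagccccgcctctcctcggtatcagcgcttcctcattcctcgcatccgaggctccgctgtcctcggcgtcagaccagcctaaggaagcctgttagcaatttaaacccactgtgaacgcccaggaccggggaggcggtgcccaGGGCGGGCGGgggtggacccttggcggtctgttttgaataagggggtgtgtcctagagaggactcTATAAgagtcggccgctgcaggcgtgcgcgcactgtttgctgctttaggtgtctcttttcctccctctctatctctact
Id2: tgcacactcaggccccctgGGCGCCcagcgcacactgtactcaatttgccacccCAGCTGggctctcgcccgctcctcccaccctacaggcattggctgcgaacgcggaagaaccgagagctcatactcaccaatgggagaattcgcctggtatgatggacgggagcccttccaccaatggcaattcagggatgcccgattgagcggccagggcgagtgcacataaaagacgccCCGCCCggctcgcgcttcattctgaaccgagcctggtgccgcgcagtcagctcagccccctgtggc
Smad6: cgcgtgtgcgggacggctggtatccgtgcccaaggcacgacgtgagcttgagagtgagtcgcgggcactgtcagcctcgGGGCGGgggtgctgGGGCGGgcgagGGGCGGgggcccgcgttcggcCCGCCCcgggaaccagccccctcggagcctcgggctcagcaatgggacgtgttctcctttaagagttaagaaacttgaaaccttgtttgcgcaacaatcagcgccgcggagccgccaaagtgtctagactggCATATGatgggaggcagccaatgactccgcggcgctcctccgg

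In the window of Id3 the capitals are 2 GC boxes that overlap each other and a TATAA that begins 29 bases before the start. Id2 held 1 GGCGCC, 1 E-box and 1 GC box, and Smad6 held 1 E-box and 4 GC boxes, with no GGCGCC in the windows of Id3 and Smad6. Of 32851 RefSeq promoter windows of the same length, 11.9% held GGCGCC, 72.3% CANNTG, 35.7% GGGCGG and 24.9% TATAA, so each of these matches is a description of the letters and not of a site in use. GGCGCC was also in the windows of Id4, Bmpr1a and Bmpr2, whose groups overlapped.

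Id3, on chromosome 4 from 136143497 to 136145755 (plus strand, GRCm38), was the gene with the largest difference among the 10. Wild-type libraries had 5.62, 9.88 and 3.57 FPKM of it, and knockout libraries had 16.8, 19.5 and 20.6 FPKM. Every knockout library lay above every wild-type library, and the wild-type libraries spread more among themselves than the knockout ones did. The means were 6.36 ± 3.22 and 18.9 ± 1.96 FPKM (SD, n = 3 each). The ratio of the means was 2.98 and the log2 difference 1.53 (SE 0.267) on the log2(FPKM + 1) scale used throughout. Leaving out 1 library at a time gave 1.23 to 1.85, the lower value without wild-type replicate 3 and the higher without wild-type replicate 2. In wild type Id3 ranked number 5 of the 10 genes by FPKM, behind Bmp1, Bmpr1a, Id1 and Smad1, and in the knockout it ranked number 2, behind Bmp1.

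Id1, the family member most often used as a readout of BMP signalling, lies on chromosome 2 from 152736251 to 152737410 (plus strand). Its values were 10.2, 7.65 and 6.63 FPKM in wild type and 18.1, 10.1 and 12.7 FPKM in the knockout. The groups overlapped by a narrow margin, since knockout replicate 2 lay just under wild-type replicate 1. Means were 8.17 ± 1.85 and 13.6 ± 4.08 FPKM (SD, n = 3 each), with a log2 difference of 0.66 (SE 0.219). Id1 and Id3 were the most abundant of the 4 family genes, and the ratio of Id3 to Id1 was 0.55, 1.29 and 0.54 in the wild-type group and 0.93, 1.94 and 1.62 in the knockout group. Those ratios overlapped, and in each group Id3 exceeded Id1 in some libraries and was lower in the rest.

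Id2 (chromosome 12, 25093799 to 25097140, minus strand), known for its part in the development of innate lymphoid cells and for restraining E proteins in many cell types, was a low transcript. It had 0.91, 0.86 and 0.35 FPKM in wild type, from 42, 36 and 14 fragments, and 1.8, 2.07 and 1.51 FPKM in the knockout, from 80, 89 and 69 fragments. The groups did not overlap, and the exact 95% Poisson intervals, which cover counting error only, reached up to 1.23 FPKM in wild-type replicate 1 and down to 1.17 FPKM in knockout replicate 3. The ratio of the means was 2.54. The log2 difference of 0.72 (SE 0.184) depended on the pseudocount and the model, being 1.31 with a pseudocount of 0.1, 1.43 in limma-voom on fragment numbers and 0.46 without the length and GC trend. Id2 passed the filter on low values, an average of 1 FPKM or more across the 6 libraries, through its knockout values alone.

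Id4, a family member best known from the nervous system and mammary gland, lies on chromosome 13 from 48261228 to 48266026 (plus strand) and stayed below that filter. It had 0.56, 0.53 and 0.42 FPKM in wild type and 1.04, 0.52 and 0.97 FPKM in the knockout, from 26 to 73 fragments. Knockout replicate 2 lay among the wild-type libraries, so the groups overlapped. Id4 has 2 antisense neighbours in the annotation, each at less than 0.1 FPKM in every library.

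Added up, the 4 Id genes came to 17.3, 18.9 and 10.98 FPKM in wild type and 37.7, 32.2 and 35.7 FPKM in the knockout. The groups were apart, at 15.7 ± 4.19 and 35.2 ± 2.78 FPKM (SD, n = 3 each), and Id1 and Id3 made up nearly all of the sum in every library. The 3 E proteins that ID proteins bind were more abundant than the Id genes and overlapped between groups, with sums of 74.7, 95.2 and 92.6 FPKM in wild type and 70.6, 81.0 and 82.2 FPKM in the knockout. The Id sum amounted to 23.2%, 19.9% and 11.9% of the E protein sum for wild type and to 53.4%, 39.8% and 43.5% for the knockout. These are shares of transcript and not of protein, and they use the deposited values. The trend with transcript length and GC content described below was not removed from them.

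**Figure D1:**
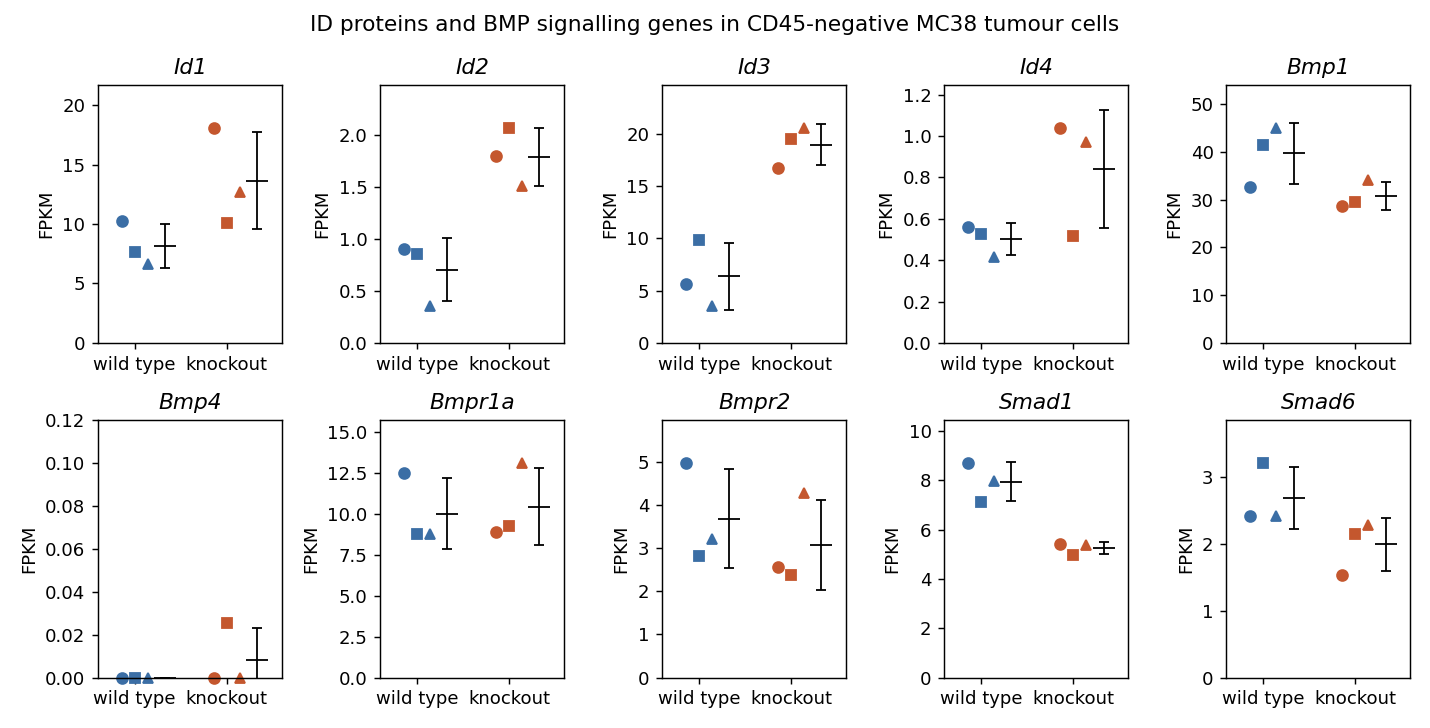
FPKM of the 10 genes in each library (y axis, linear from 0, a separate scale per gene), with circles, squares and triangles for replicates 1, 2 and 3 and the bar showing the mean ± SD of the 3 libraries of a group. Id2 and Id3 show knockout points above all wild-type points, Smad1 and Smad6 show them below, and Bmp4 is at 0 in 5 libraries.

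**Figure D2:**
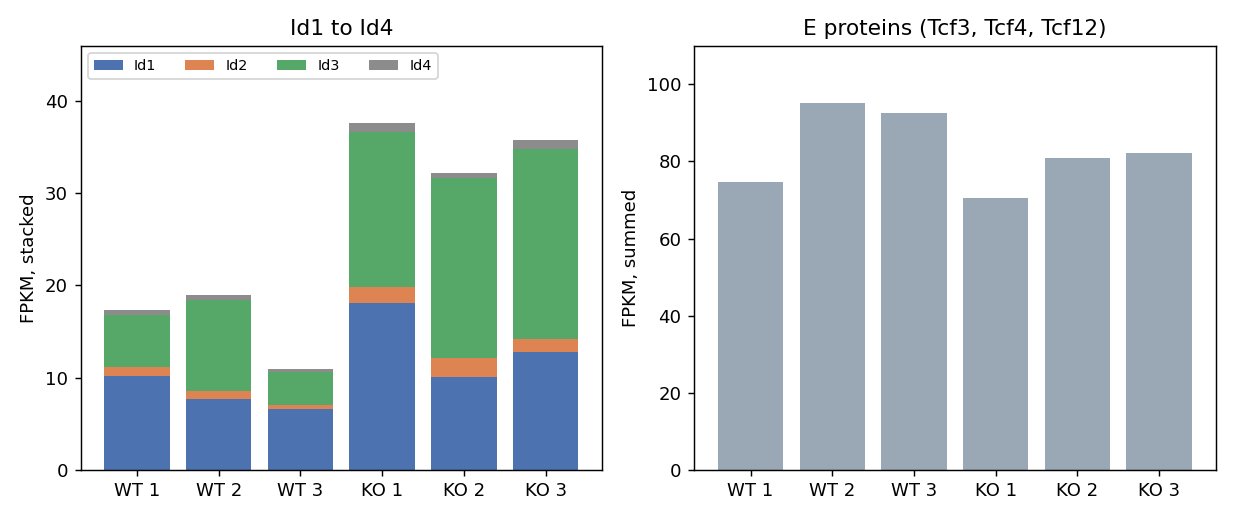
Left, stacked FPKM of Id1 to Id4 in each library (WT wild type, KO knockout); right, summed FPKM of Tcf3, Tcf4 and Tcf12 in the same libraries, both axes starting at 0 with different scales. The Id stacks reach 10.98 to 18.9 FPKM in wild type and 32.2 to 37.7 FPKM in the knockout, while the E protein bars of both groups overlap.

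The ligand among the 10, Bmp4 (chromosome 14, 46383520 to 46390669, minus strand), was close to undetected. It had 0 fragments in all 3 wild-type libraries and in knockout replicates 1 and 3, and 1 fragment in knockout replicate 2. A count of 0 allows up to 3 fragments (a one-sided 95% Poisson limit), which is 0.070 to 0.082 FPKM for Bmp4 at these depths, so a difference was not detectable at this depth. The 13 other BMP and related ligands listed, from Bmp2 to Gdf7, were below the filter in every case: Bmp2 had 3 to 12 fragments per library and Bmp6 had 2 to 6. Transcripts of the ligands were thus scarce in the sorted fraction in both groups, and ligand from other cells of the tumour or host was not measured.

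Bmp1 carries the BMP name but is no BMP ligand: it is a tolloid metalloprotease that trims procollagens and cleaves the BMP antagonist chordin. It lies on chromosome 14 from 70474558 to 70520234 (minus strand) and was the most abundant of the 10 genes in both groups. Values were 32.7, 41.5 and 45.1 FPKM in wild type and 28.6, 29.6 and 34.1 FPKM in the knockout, with knockout replicate 3 above wild-type replicate 1. Means were 39.8 ± 6.38 and 30.7 ± 2.90 FPKM (SD, n = 3 each), with a log2 difference of -0.35 (SE 0.161), which turned to 0.18 when the trend with transcript length and GC content described below was removed.

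The receptors differed little. Bmpr1a, a type I receptor on chromosome 14 from 34410734 to 34503341 (minus strand), had 12.5, 8.74 and 8.79 FPKM in wild type and 8.91, 9.29 and 13.1 FPKM in the knockout. The groups covered the same range, with a log2 difference of 0.05 (SE 0.192, 95% interval -0.37 to 0.48), whose sign turned to -0.05 after rescaling to transcripts scaled to a common total (TPM), to -0.09 without the length and GC trend, and when wild-type replicate 2, wild-type replicate 3 or knockout replicate 3 was left out. Bmpr2, the type II receptor that is specific to BMPs (chromosome 1, 59763400 to 59879014, plus strand), had 4.97, 2.82 and 3.22 FPKM in wild type and 2.56, 2.38 and 4.27 FPKM in the knockout. Its groups also overlapped, with a log2 difference of -0.20 (SE 0.224, 95% interval -0.70 to 0.30). Bmpr1a and Bmpr2 varied together from library to library, wild-type replicate 1 and knockout replicate 3 being the high ones of both genes, and Bmpr1a was 2.52 to 3.90 times as abundant as Bmpr2 per length in all 6 libraries. The same libraries were the highest for Tcf4 and Tcf12, so this pattern is not particular to the receptors. Without the length and GC trend the SE of the difference was 0.099 for Bmpr1a and 0.099 for Bmpr2. Both receptor genes have an overlapping neighbour in the annotation, each at less than 1 FPKM in every library.

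Both SMAD genes had lower values in the knockout. Smad1, a receptor SMAD that carries the BMP signal to the nucleus, lies on chromosome 8 from 79338395 to 79399518 (minus strand) and had 8.71, 7.13 and 7.95 FPKM in wild type and 5.41, 4.97 and 5.38 FPKM in the knockout. The groups did not overlap and were tight, at 7.93 ± 0.788 and 5.25 ± 0.245 FPKM (SD, n = 3 each), with a ratio of 0.66 and a log2 difference of -0.51 (SE 0.141). Smad6, the inhibitory SMAD that acts most on BMP receptors (chromosome 9, 63953076 to 64022059, minus strand), had 2.42, 3.22 and 2.42 FPKM in wild type and 1.54, 2.16 and 2.29 FPKM in the knockout. The groups were apart by a small step, knockout replicate 3 lying just under the lower wild-type libraries, and the log2 difference was -0.30 (SE 0.17), which became 0.03 without the length and GC trend. Id1 and Id3 on one side and Smad6 on the other, all known as BMP targets, thus had differences of opposite sign on the scale of the deposited values.

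Of the 10 genes, 8 passed the filter on low values and entered the fit over 11287 genes with limma, a linear model with moderated variances. At a Benjamini-Hochberg adjusted p under 0.05, Id2 and Id3 were past the threshold as higher and Smad1 as lower, beside 5.91% of all genes tested called higher and 8.30% called lower. Because those differences chose the genes, nothing is read from the 3. With the length and GC trend removed none of the 8 was past it, beside 1.23% of genes called higher and 1.65% called lower. Groups without overlap were seen as higher for Id2 and Id3 and as lower for Smad1 and Smad6, where 16.0% of all genes tested had every knockout library above every wild-type library and 19.6% had every one below. The median difference of the 8 was -0.07 (0.11 without the trend) and that of all genes tested 0.02 (0.01 without the trend), on the log2 scale.

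The rest of the pathway was tested in the same fit through 87 other genes with known parts in BMP signalling or of the helix-loop-helix class. These lists were drawn up by known role but with earlier results of these data known, so their counts are no independent test. Of these, 39 passed the filter: 10 fell (25.6%), against 8.30% of all genes tested, and 0 rose, against 5.91%. In limma 2 of the 39 were higher at an unadjusted p under 0.05 (Pcolce2 and Scx), and limma-voom on fragment numbers recovered from the FPKM also called 0 higher. The median difference of the 39 was -0.16, and -0.07 without the length and GC trend. Without the trend 3 of the 39 fell (Acvr1, Smad5 and Dlx3), against 1.65% of all genes. The count of 10 dropped to 0 when wild-type replicate 3 was left out, to 2 for knockout replicate 1, to 2 for knockout replicate 2 and to 6 for wild-type replicate 1. In the same order, these fits called 1, 67, 128 and 728 of all genes tested lower, against 937 with all 6 libraries.

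Among the other receptors and co-receptors, 3 of 6 tested genes fell and 0 rose. Acvr1, the type I receptor also called ALK2, had 13.3, 13.7 and 14.3 FPKM in wild type and 7.64, 6.74 and 9.17 FPKM in the knockout, with no overlap. Its log2 difference was -0.74 (SE 0.148, limma adjusted p = 0.018), and -0.72 without the length and GC trend (limma adjusted p = 0.0372, from 0.0323 to 0.137 over the fits with that trend removed). Rgma and Rgmb, membrane-anchored co-receptors that bind BMPs and raise the response of cells to them, fell by 0.66 (limma adjusted p = 0.0494) and 0.57 on the log2 scale (limma adjusted p = 0.0336). Without the trend their differences were -0.22 (limma adjusted p = 0.368, from 0.167 to 0.688 over the fits with the trend removed) and -0.38 (limma adjusted p = 0.0943, from 0.0752 to 0.272), neither past the threshold. The drop in Acvr1 stood beside the overlapping values of Bmpr1a; whether their differences differ from each other was not tested.

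Among the other SMADs and intracellular inhibitors, 5 of 8 tested genes fell and 0 rose, and they include both carriers and brakes of the signal. Smad5, the receptor SMAD that acts side by side with SMAD1, had 15.7, 13.1 and 13.7 FPKM in wild type and 7.51, 7.92 and 11.5 FPKM in the knockout, with no overlap. Its log2 difference was -0.62 (SE 0.175, limma adjusted p = 0.0422), and -0.54 without the trend (limma adjusted p = 0.0434, from 0.0434 to 0.166 over the fits with the trend removed). Smad9, the third receptor SMAD, had 0 fragments in all 6 libraries, so that SMAD1 and SMAD5 were the receptor SMADs seen on the BMP side. Of the brakes, Smad7, the inhibitory SMAD shared with the TGF-beta route, fell by 0.57 on the log2 scale (limma adjusted p = 0.0478), Smurf1, a ubiquitin ligase for SMAD1 and SMAD5, by 0.73 (limma adjusted p = 0.0205), and Ski, a corepressor of SMAD complexes, by 0.75 (limma adjusted p = 0.0199). The values of these 3 shrank to -0.16, -0.25 and -0.25 without the trend, none past the threshold (limma adjusted p = 0.53, 0.211 and 0.143). Smad7 was past it in 4 of 24 alternative settings. Smurf2, a related ligase, also fell (limma adjusted p = 0.0487), and was at -0.44 without the trend (limma adjusted p = 0.0571). Of the 5 genes that fell, only Smad5 was past the threshold in the fit with the trend removed. The FPKM of Smad6 was 0.0826 to 0.105 of that of Smad7 in wild type and 0.0892 to 0.129 of it in the knockout, so the ratio of the inhibitory SMADs overlapped between the groups.

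Of the BMP target genes other than the Id genes, 2 of 6 tested fell and 0 rose. The difference was negative in 5 of the 6, with a median of -0.53, and -0.32 without the trend. Dlx3, a homeobox gene of skin and bone, had 31.5, 19.9 and 25.8 FPKM in wild type and 11.3, 7.96 and 10.1 FPKM in the knockout, with no overlap. Its log2 difference was -1.30 (SE 0.192, limma adjusted p = 0.0111), and -1.18 without the trend (limma adjusted p = 0.0434, from 0.0196 to 0.138 over the fits with the trend removed). Gata2, a zinc-finger factor of blood and endothelial cells, had 3.71, 3.43 and 2.999 FPKM in wild type and 1.18, 1.13 and 1.05 FPKM in the knockout, a log2 difference of -1.04 (limma adjusted p = 0.0111). These were the largest drops among the 39, and in Gata2 the difference without the trend was -0.67 (limma adjusted p = 0.0515, from 0.0515 to 0.166 over the fits with the trend removed). On the side of the Id genes, Hes1, a repressor known mainly as a Notch target, had a log2 difference of 0.59 with overlapping groups and did not pass. Hey1 and Msx2, below the filter and named after their values were seen, were at 0.17 to 0.213 and at 0.3 to 0.46 FPKM in wild type and at 0.434 to 0.653 and at 0.52 to 0.802 FPKM in the knockout, with no overlap in either gene. Hey1 rested on 9 to 12 fragments per library in wild type and 25 to 40 in the knockout. For Msx2 these were 16 to 26 and 32 to 48. With no filter on low values neither passed (limma adjusted p = 0.0959 for Hey1 and 0.188 for Msx2). Among all genes past the filter, 16.0% had every knockout library above every wild-type library, a share that does not cover genes this low.

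The extracellular antagonists, the enzymes around Bmp1 and the partners of the ID proteins did not pass the test. Of 8 tested antagonists and modulators the most abundant were Fstl1, a secreted follistatin-like protein, at 288 ± 23.3 FPKM in wild type and 335 ± 36.5 FPKM in the knockout, and Twsg1, which binds BMPs with chordin, at 18.7 ± 2.85 and 18.4 ± 3.25 FPKM (SD, n = 3 each). Pcolce and Pcolce2, enhancers of the procollagen cleavage that Bmp1 carries out, were at 151 ± 22.4 and 179 ± 46.7 FPKM and at 6.63 ± 0.613 and 8.71 ± 0.722 FPKM (SD, n = 3 each), in wild type and knockout. Of the 3 E proteins tested, Tcf3 had a log2 difference of -0.18 (95% interval -0.55 to 0.19) and Tcf12 one of 0.01 (95% interval -0.37 to 0.38). The most abundant of 6 other helix-loop-helix factors tested were Bhlhe40, a repressor of clock genes, at 105 ± 54.5 and 72.6 ± 14.6 FPKM, and Twist1, a mesenchymal factor that pairs with E proteins, at 60.5 ± 9.11 and 59.3 ± 8.59 FPKM (SD, n = 3 each).

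**Figure D3:**
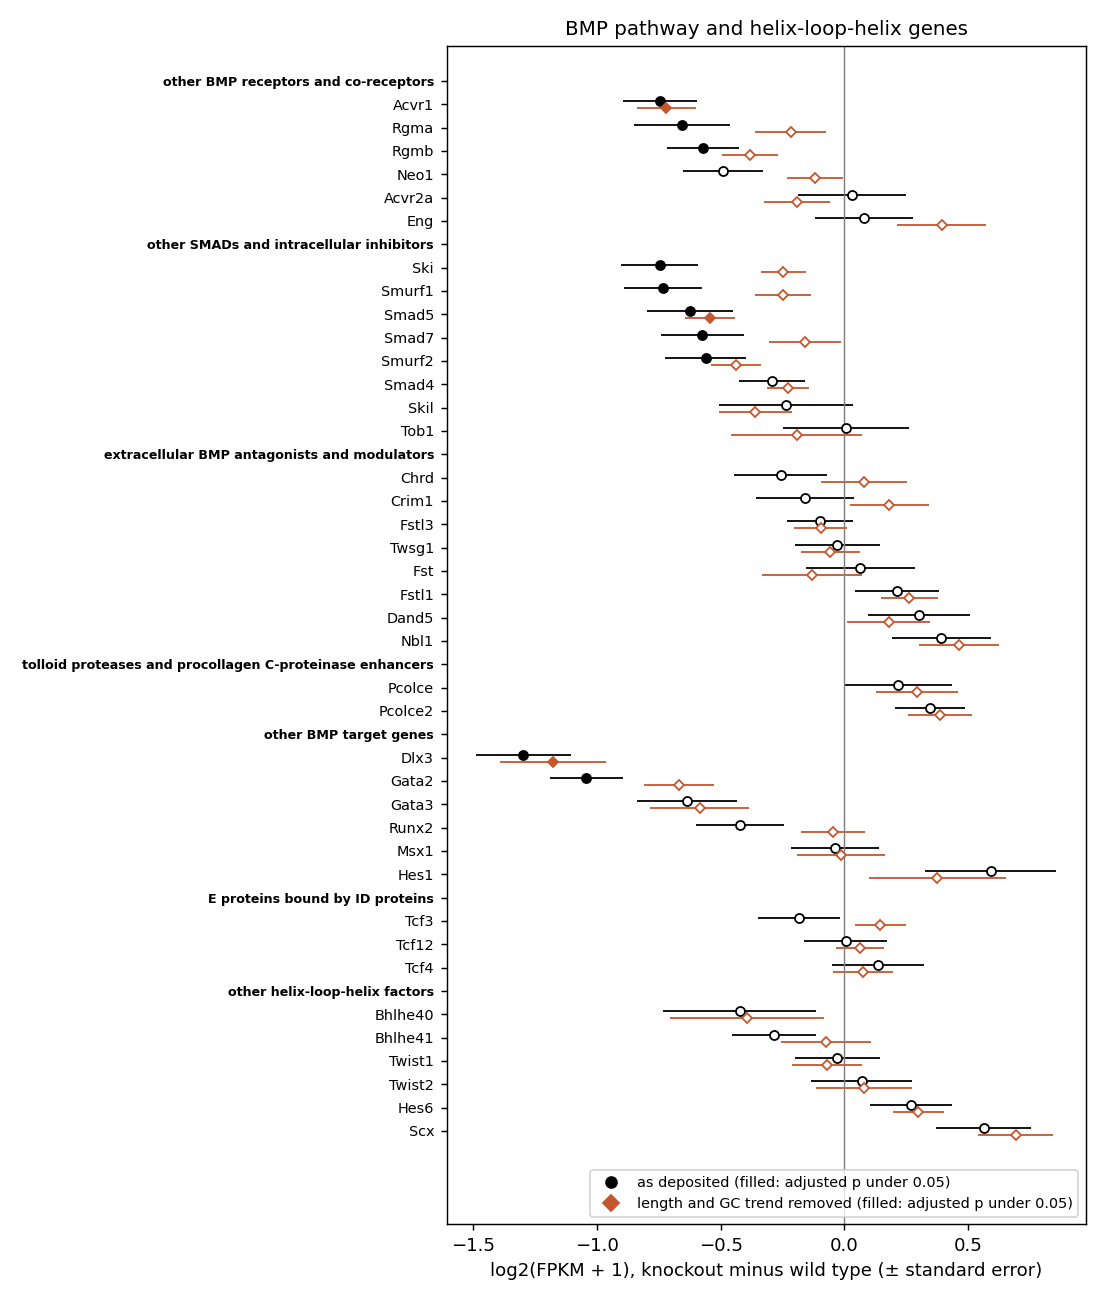
log2(FPKM + 1) differences, knockout minus wild type, with standard errors, of the 39 BMP pathway and helix-loop-helix genes tested outside the 10, grouped by role; black circles use the deposited values, orange diamonds those without the length and GC trend, and filled symbols passed an adjusted p under 0.05. Filled symbols lie to the left of 0 only, 10 circles and 3 diamonds.

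Differences across all genes followed transcript length and GC content, and the Id and SMAD genes stand at different points of that trend. With the protein-coding genes sorted by longest annotated transcript into 5 bins of equal size, the median log2 difference was 0.28, 0.09, -0.05, -0.14 and -0.28 from the shortest bin to the longest. Id1 (1160 bases) and Id3 (1278 bases) are in the shortest bin and Id2 (1969 bases) in the next, Smad6 (2971 bases) and Smad1 (3775 bases) are in the middle bin, and Bmp1, Bmpr1a and Bmpr2 (5365, 5956 and 12899 bases) are in the longest. In 5 bins by GC content instead, the medians were 0.23, 0.03, -0.07, -0.11 and -0.19 from the lowest GC to the highest. Bmpr1a and Bmpr2 are in the lowest GC bin, Id2 in the next and Smad1 in the middle one. Id1 and Id3 are in the bin at -0.11, and Bmp1 and Smad6 in the highest GC bin. The 10 pathway genes that fell had a median transcript of 4784 bases with a median GC content of 55.6%, against 3571 bases and 50.3% for the 39 tested. Without the trend the log2 differences were 1.34 for Id3, 0.43 for Id1, 0.46 for Id2 and -0.37 for Smad1, so that these 4 kept their sign, while Bmp1, Smad6 and Bmpr1a changed theirs. For the last 3, the sign of the difference therefore depended on whether the trend was removed.

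**Figure D4:**
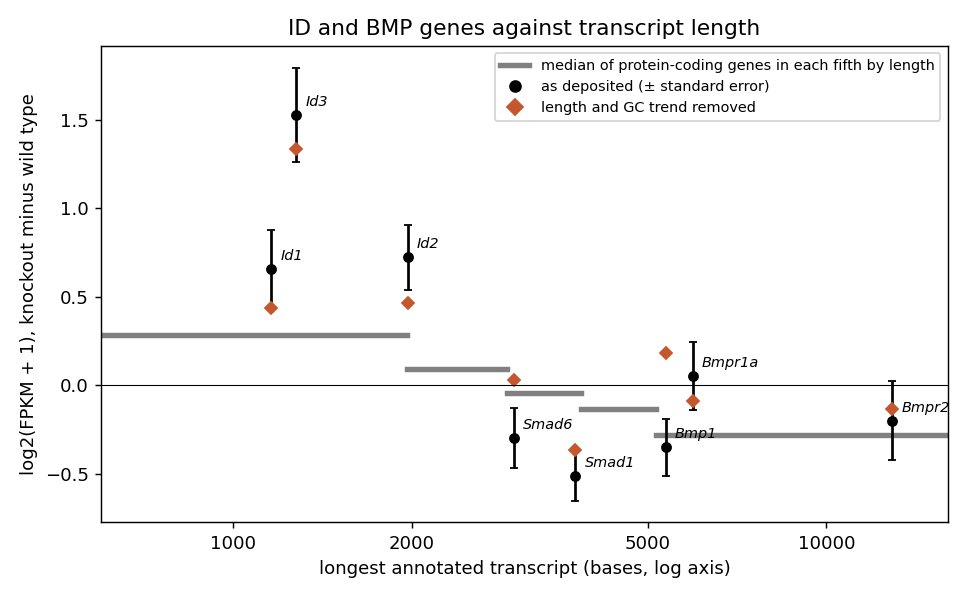
log2(FPKM + 1) difference, knockout minus wild type, of the 8 genes past the filter against the length of their longest annotated transcript in bases (log axis); black points are the deposited values with standard errors, orange diamonds those without the length and GC trend, and grey bars the median of all protein-coding genes tested in each length bin. The grey bars use the deposited values and are no reference for the diamonds. The black point of Id3 lies at 1.53, far from the grey bar of its bin at 0.28, whereas those of Bmp1 and Bmpr2 lie close to theirs. The diamond of Id3 lies at 1.34.

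**Figure D5:**
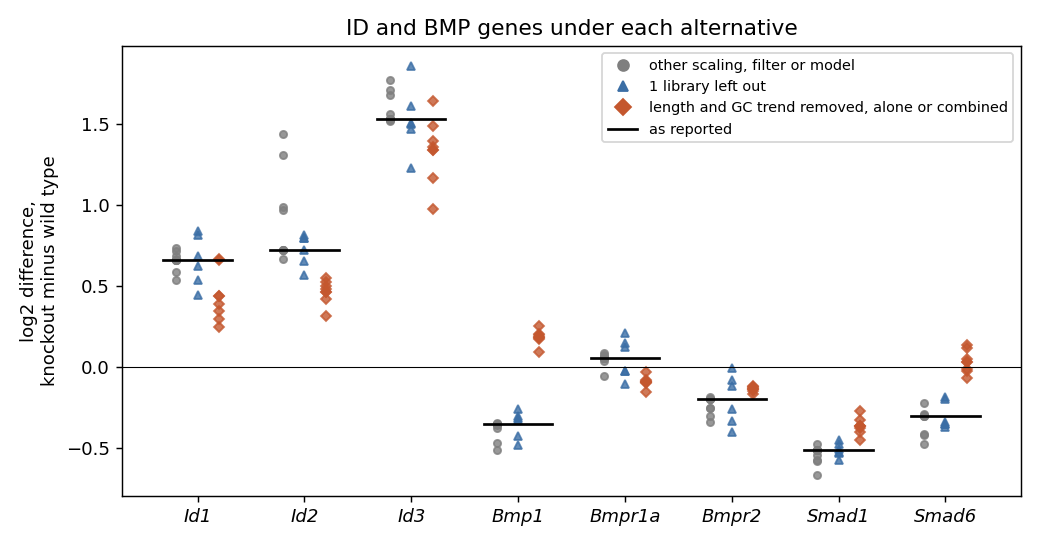
log2 difference, knockout minus wild type, of the same 8 genes under each alternative setting, with the reported value as a black line: other scalings, filters or models in grey, 1 library left out in blue, and the length and GC trend removed, alone or combined with another setting, in orange. Id1, Id2 and Id3 stay above 0 and Smad1 below 0 in every setting drawn, while Bmp1, Bmpr1a and Smad6 have points on both sides.

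Some markers of other cell types differed between the groups beside these genes. Of 9 fibroblast markers, all tested, 4 rose (Dcn, Dpt, Pi16 and Postn) and 1 fell (Col1a1), beside 5.91% of all genes called higher and 8.30% called lower. Without the length and GC trend 2 rose (Dpt and Pi16) and none fell, Postn standing at 0.63 and Col1a1 at -1.17 on the log2 scale. The sum of the fibroblast markers was 1136 to 1701 FPKM in wild type and 1533 to 1704 FPKM in the knockout. Most of it was Col3a1, which averaged 1143 FPKM in wild type and 1213 FPKM in the knockout with overlapping groups. Of 9 pericyte and smooth muscle markers 4 were tested, of which 3 fell (Cspg4, Notch3 and Mcam), beside 8.30% of all genes called lower. The sums of the 9 were 51.4 to 67.4 and 32.0 to 38.6 FPKM, most of it Cspg4 and Acta2. Of the 5 below the filter, Rgs5 averaged 0.426 and 0.431 FPKM and Des 0.326 and 0.564 FPKM in wild type and knockout. Myh11, Kcnj8 and Abcc9 averaged 0.132 FPKM or less in either group, with lower means in the knockout. Without the trend none of these 3 was past the threshold, with log2 differences of -0.29 for Cspg4, -0.08 for Notch3 and -0.61 for Mcam. The 10 endothelial markers were all below the filter, with sums of 2.40 to 6.07 FPKM in wild type and 1.03 to 2.15 FPKM in the knockout, and 3 of 4 red blood cell genes were tested with none past the threshold, their sums being 1.46 to 22.4 and 12.6 to 81.1 FPKM. The part of these cell types in the values of the Id, SMAD and receptor genes was not tested.

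The protein-coding genes with the profile closest to that of Id3 over the 6 libraries were Sgk1, Ankrd1, Sarnp, Ppih and Dusp1. Likeness was the root mean square difference of log2(FPKM + 1) values after centring each gene on its own mean, which was 0.25 for Sgk1, 0.31 for Ankrd1, 0.35 for Sarnp, 0.38 for Ppih and 0.39 for Dusp1. Sgk1 had 42.4, 75.3 and 25.5 FPKM in wild type and 103.5, 84.5 and 142.8 FPKM in the knockout. As in Id3, wild-type replicate 2 was the highest and replicate 3 the lowest of the wild-type libraries in all 5 of these genes. They were chosen for closeness to Id3 over these same 6 libraries, so a shared order is no independent observation.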

How the data were processed

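Poly-A RNA of 6 libraries, 3 per group, was analysed from 1 table of the whole series. The deposited values are FPKM with the gene length in bases, per the file headers, 1 column per library and no pooling. The submitters' processing notes name DESeq2 1.20.0, featureCounts 1.5.0-p3, HISAT2 2.0.5 and CASAVA 1.8, with GRCm38 (mm10), without a role for any. The strand setting, and how fragments matching more than one gene were counted, is not given in the sources used here.

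In each library, 100% of the products of FPKM and gene length were whole multiples of a common step (tolerance 0.001 of a fragment), which gave the fragment numbers. log2(FPKM + 1) was fitted on group with limma 3.58.1 in R 4.3.3 (two-sided, variances moderated along a trend with the mean, Benjamini-Hochberg over all genes tested), for genes averaging 1 FPKM or more. Fold changes on this scale understate those of low genes. The trend was removed by subtracting, library by library, a surface smoothed over log2 length and GC content of the longest GENCODE vM21 transcript (mgcv 1.9.3, 11269 genes), which need not be the transcript expressed. Promoters came from RefSeq (GRCm38.p6), where 8 of the 10 genes matched. The procedure was tested on simulated data.

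The 10 genes, the other lists and the tests were chosen with earlier results of these data known. Genes are named by a rule: the 10; Npm1; in each list up to 4 genes past the threshold with the smallest p, or else the 2 most abundant; cell type markers; and the 5 genes closest to Id3. Smurf2, Scx, Tcf4, Smad9, Hes1, Hey1, Msx2 and those of the closing section lie outside it and were named after their values were seen, as were genes listed by setting. Alternatives were another pseudocount (0.1), other filters, scalings and variance models, a replicate block, removal of the trend and leaving out each library.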

Additional observations from a re-analysis of the deposited data

How the results depend on the processing

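Counts of genes past the threshold moved with the settings, and the cause was not tested unless the construction of the setting shows it. Over all genes, 667 were higher and 937 lower. These became 0 and 0 with no filter on low values (24310 genes tested, 4543 with an unadjusted p under 0.05), 2690 and 2764 with array weights, and 139 and 186 without the length and GC trend. After rescaling to TPM 251 were higher and 710 lower, so that 26.1% of calls were higher against 41.6% as reported, and the median of all genes shifted by -0.10. With 1 library left out, alone or with the trend removed as well, the counts ran from 2 to 1340 higher and from 1 to 1465 lower. For the 39 pathway genes outside the 10, the count of 10 lower became 0 with no filter, 5 in TPM, 16 with array weights and 3 without the trend, and ran from 0 to 11 with 1 library left out. The count higher became 3 with array weights (Nbl1, Hes1 and Scx) and ran from 0 to 1 with 1 library left out. In the fit with the replicate block, 313 genes were higher, 509 lower and 5 pathway genes lower, and with the trend removed as well these were 4, 5 and 0. Deviations of same-numbered libraries from their group means correlated at -0.19, 0.27 and -0.37. The labels do not say whether replicate numbers pair the samples, and with 3 libraries per group these values cannot settle it. Id3 kept a positive difference in all settings, from 0.97 to 1.85, as did Id1 (0.25 to 0.84) and Id2 (0.31 to 1.43), and Smad1 a negative one (-0.67 to -0.27). Id2, Bmpr2, Smad6 and Gata2 have no value with the filter at a mean of 5 FPKM. Depth limits Id2, Id4 and Bmp4, with at most 89, 73 and 1 fragments per library.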

Other observations

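A few pathway genes outside the naming rule, chosen after their values were seen, did not pass the test but had values that a follow-up may want. Scx, a helix-loop-helix factor of tendon that pairs with E proteins, had 1.84, 3.24 and 2.55 FPKM in wild type and 4.04, 5.17 and 3.42 FPKM in the knockout. Its groups did not overlap and the log2 difference was 0.56 (limma adjusted p = 0.0755). Hes1 had 25.9, 39.7 and 16.6 FPKM in wild type and 46.7, 36.6 and 35.7 FPKM in the knockout, a log2 difference of 0.59 (limma adjusted p = 0.152) with groups that overlapped. Hes1 shared with Id3 the order of the wild-type libraries, replicate 2 highest and replicate 3 lowest. Since Hes1 was picked after its values were seen, that is no independent observation, and how many genes share the order was not counted.

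Gata3, a zinc-finger factor related to Gata2, had 2.09, 0.991 and 1.84 FPKM in wild type and 0.812, 0.442 and 0.79 FPKM in the knockout, with a log2 difference of -0.63 (limma adjusted p = 0.0608). Neo1, the receptor that RGM proteins bind, had 7.45, 8.58 and 6.74 FPKM in wild type and 4.35, 4.96 and 6.11 FPKM in the knockout, a log2 difference of -0.49 (limma adjusted p = 0.0679). Smad4, the partner of all receptor SMADs, was at 32.9 ± 0.934 FPKM in wild type and 26.7 ± 1.64 FPKM in the knockout (SD, n = 3 each), with groups that did not overlap and a log2 difference of -0.29 (limma adjusted p = 0.154).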
